A study of Mus musculus with 14 samples.

Results

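The interstitium and the basement membranes of the kidney are held together by more than collagen. This report covers 39 genes, taken as a named list by gene symbol, that encode non-collagen matrix proteins or enzymes that crosslink, cut or protect the matrix. They are 15 glycoproteins, 6 proteoglycans, 8 laminin chains, 3 lysyl oxidases that crosslink fibres, 4 matrix metalloproteinases and 3 tissue inhibitors of metalloproteinases. All 39 were found among the 21878 genes of the kidney transcriptome, and all 39 reached 0.1 FPKM (fragments scaled to transcript length and library size) in at least 3 mice, as did 14912 genes in all.

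RNA was sequenced from the kidney of 14 male C57BL/6J mice, and each mouse gave 1 library. WT diabetic mice (n = 4) and Cfb-/- diabetic mice (n = 4) were fed a diet with 60% of its calories from fat for 4 weeks and were then injected with streptozotocin (STZ) at 60 mg/kg on 5 days, whereas WT control mice (n = 3) and Cfb-/- control mice (n = 3) received chow with 10% fat and citrate buffer. Mice entered the study at an age of 8 weeks and were killed 21 weeks after STZ, and the labels carry the time 34 weeks. Cfb encodes complement factor B, which the alternative complement pathway needs for its activation. It was deleted in the whole body, so that no cell type of origin can be assigned to a genotype difference, and the controls of the same genotype carry the same deletion.

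Fibronectin, periostin, tenascin and the thrombospondins are secreted glycoproteins that link cells to the matrix. Small proteoglycans such as biglycan, decorin and lumican bind and space fibrils, whereas laminins and nidogens build basement membranes with perlecan. In the diseased kidney, activated fibroblasts and pericytes are the best known makers of interstitial matrix. Metalloproteinases cut these proteins and TIMPs block the metalloproteinases, with TIMP3 bound to the matrix itself.

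Cfb measured 1.13 to 2.22 FPKM in the Cfb-/- mice and 56.7 to 131 FPKM in the WT mice, so the genotype labels and the transcript levels went together in every library. Pairs of mice within a group correlated at 0.981 to 0.99 on log2(FPKM + 0.1) over the 14912 genes that reached 0.1 FPKM in at least 3 mice. FPKM values summed to 330246 to 364953 in the diabetic mice and to 372884 to 488196 in the control mice, and the highest gene took 2.49% to 4.6% of the sum in diabetic and 10.2% to 13.9% in control mice. WT control mouse 2 stood apart with the highest sum. Depth in reads is unknown from FPKM. The labels do not say whether libraries of a group came from separate cages or litters, so p-values measure the spread between these mice.

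The sequences just before the TIMP genes are shown because these 3 genes encode inhibitors of the same enzymes and did not change alike with diabetes, as given below. The mouse genes lie on chromosome X (Timp1, chrX:20870166-20874737), chromosome 11 (Timp2, chr11:118301061-118355411) and chromosome 10 (Timp3, chr10:86300412-86349505) of GRCm38.p6. Each line holds the 250 bases upstream of the RefSeq start, read 5′ to 3′ on the strand of the gene, with the GC box (GGGCGG, or CCGCCC on the other strand) in capitals.
Timp1, plus strand, chrX:20869916-20870165: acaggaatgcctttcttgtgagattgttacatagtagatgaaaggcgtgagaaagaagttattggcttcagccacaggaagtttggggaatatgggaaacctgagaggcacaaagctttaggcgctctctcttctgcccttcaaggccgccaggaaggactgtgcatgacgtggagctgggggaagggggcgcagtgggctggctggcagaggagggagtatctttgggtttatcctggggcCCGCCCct
Timp2, minus strand, chr11:118355412-118355661: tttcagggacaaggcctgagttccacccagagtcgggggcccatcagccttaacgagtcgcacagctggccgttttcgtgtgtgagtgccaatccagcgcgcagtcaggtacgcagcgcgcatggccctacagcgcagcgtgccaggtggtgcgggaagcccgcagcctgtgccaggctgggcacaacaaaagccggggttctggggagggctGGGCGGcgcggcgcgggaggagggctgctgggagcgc
Timp3, plus strand, chr10:86300162-86300411: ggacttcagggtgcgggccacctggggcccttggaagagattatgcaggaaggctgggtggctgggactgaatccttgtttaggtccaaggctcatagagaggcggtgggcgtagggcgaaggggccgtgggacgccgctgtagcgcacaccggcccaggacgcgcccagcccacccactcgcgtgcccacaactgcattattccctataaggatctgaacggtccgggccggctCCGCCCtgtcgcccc
Each of the 3 windows held 1 GC box, and neither TATAAA nor TGANTCA, the letters of a TATA box and of an AP-1 site, was in any of them on either strand. GC content was 54.4% for Timp1, 68% for Timp2 and 65.6% for Timp3, against a median of 52.4% over 32851 promoter windows. A GC box stood in 32.7% of those windows (15 of the 24 matrix genes with an entry), TATAAA in 12.4% (5 of 24) and TGANTCA in 6.75% (1 of 24). The letters searched therefore did not set Timp3 apart from Timp1 and Timp2. Timp1 lies inside the span of Syn1, which measured 0 to 0.203 FPKM, and Timp3 inside that of Syn3, which measured 0.294 to 1.93 FPKM.

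The first question was how diabetes altered matrix transcripts in the kidney of WT mice and of Cfb-/- mice. High-fat diet, STZ and the diabetes they induce cannot be told apart in this design, and diabetes here stands for all of them. Compared with their controls, WT diabetic mice had higher levels of 35 of the 39 genes and a lower level of 1, Timp3, at an adjusted p under 0.05 (limma, adjusted over all genes tested). Among all 14912 genes, 36.2% were higher and 9.97% lower by the same rule. In Cfb-/- mice 32 of the 39 were higher and 1, again Timp3, was lower, against 27.4% and 6.40% of all genes. The criteria of the study, an unadjusted p under 0.05 with a fold change over 2, took 29 of the 39 as higher in WT (15.6% of all genes) and 27 in Cfb-/- mice (13.3%). Here these thresholds were put on the limma fit, whereas the study put them on DESeq2 results, so counts need not match those of the study. Fewer cells of a type and less RNA per cell cannot be told apart in these whole-kidney values.

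Genes higher in both genotypes numbered 32. Postn, Vcan and Lamb3 passed the test in WT mice and not in Cfb-/- mice, and Vtn, Lama1 and Mmp9 passed in neither. In 28 of the 39 genes every one of the 8 diabetic mice lay above every one of the 6 control mice, which 20.8% of all genes did, and in Timp3 every diabetic mouse lay below, which 4.47% of all genes did. Over the 39 genes the median log2 fold change reached 1.48 in WT mice and 1.30 in Cfb-/- mice. All genes tested had medians of 0.29 and 0.22, and 37 of the 39 in WT and 36 in Cfb-/- mice lay above them. Scaling by median ratios, which centres the typical gene by construction, set the median of all genes at 0.03 in WT mice and brought the share of higher calls among all calls from 78.4% to 50.3%, and quantile normalization brought it to 44.2%. The 39 genes then had 33 and 30 higher calls and 2 and 1 lower calls in WT mice, and the lower call under quantile normalization was not Timp3. In Cfb-/- mice the share of higher calls went from 81% to 56.8% and 49.1%, with 32 and 26 of the 39 genes called higher and 1 and 2 called lower.

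**Figure D1:**
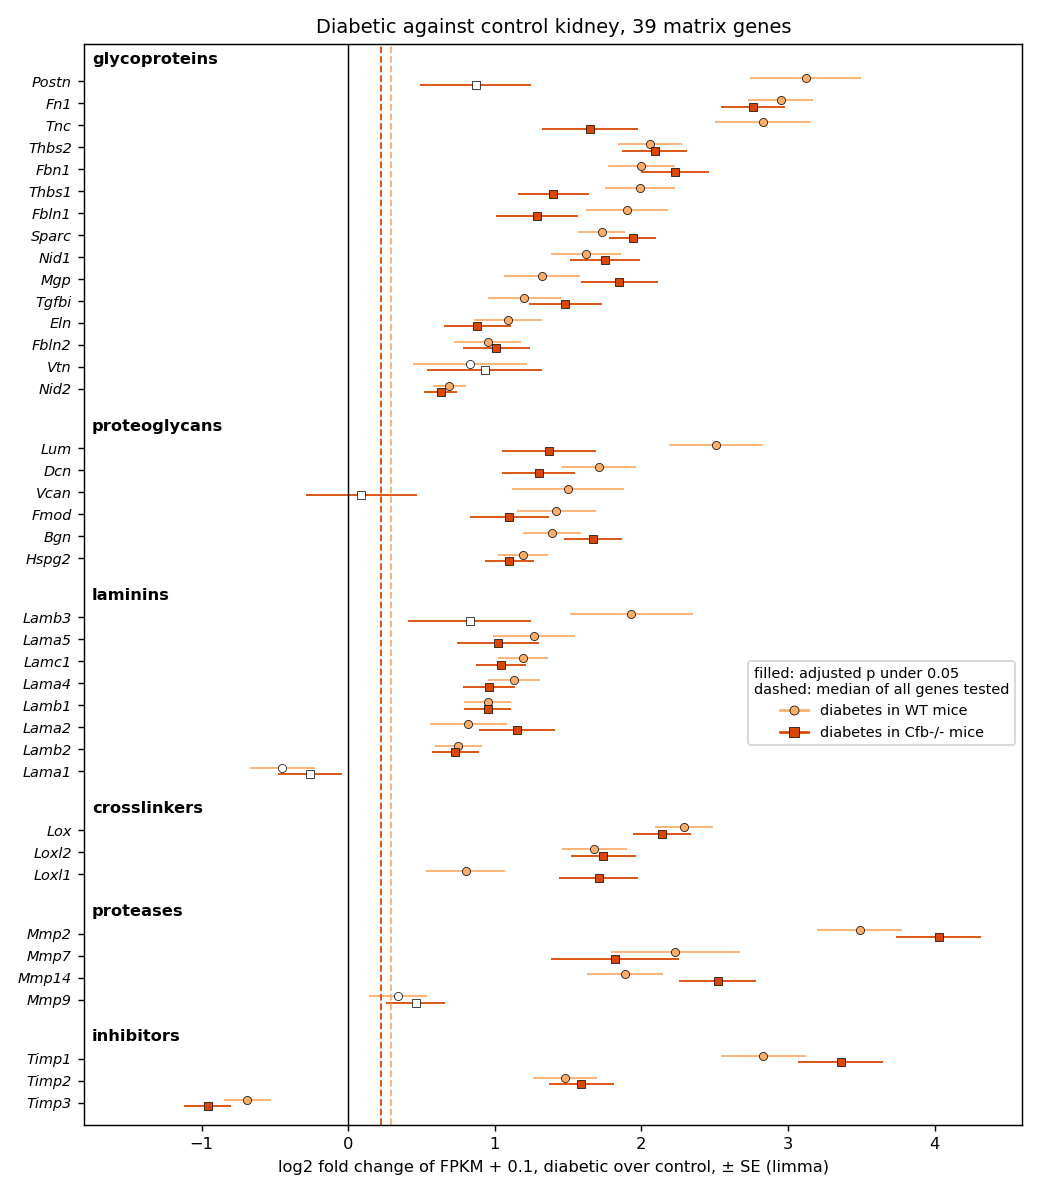
Log2 fold change of FPKM + 0.1, diabetic over control, with its SE (horizontal axis) for each of the 39 genes by role (vertical axis), in WT mice (circles) and Cfb-/- mice (squares). Filled symbols passed the adjusted test, open symbols did not, and the dashed lines mark the medians of all genes tested at 0.29 and 0.22; 35 genes in WT and 32 in Cfb-/- mice were called to the right of 0, and only Timp3 was called to the left.

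Metalloproteinase genes held the largest change of the list. Mmp2, the gelatinase A that cuts denatured collagen and basement membrane collagen, measured 0.912, 0.574 and 0.995 FPKM in the WT control mice, in order of replicate number as in all lists below, and 0.535, 0.65 and 0.881 in the Cfb-/- control mice. The WT diabetic mice had 14, 8.4, 7.42 and 11.9 FPKM and the Cfb-/- diabetic mice 16.9, 17.4, 8.17 and 10.4. No diabetic mouse came near the control mice, and the means were 0.827 ± 0.223 FPKM (SD, n = 3) in WT control, 0.689 ± 0.176 in Cfb-/- control, 10.4 ± 3.07 (n = 4) in WT diabetic and 13.2 ± 4.62 in Cfb-/- diabetic mice. Diabetic over control, the log2 fold change was 3.49 ± 0.29 (adjusted p = 2.75e-06) in WT mice and 4.03 ± 0.29 (adjusted p = 1.01e-06) in Cfb-/- mice, each given with its SE. An exact permutation test of 4 against 3 mice cannot go below p = 0.0571, and it gave 0.0571 for Mmp2 in both genotypes.

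Mmp14 encodes the membrane-bound enzyme that activates MMP2. It stood at 2.45, 2.89 and 3.39 FPKM in WT control and 2.07, 1.8 and 2.24 in Cfb-/- control mice. In WT diabetic mice the values were 13.2, 9.21, 8.85 and 13.3 FPKM, and in Cfb-/- diabetic mice 17.4, 15.3, 7 and 11.4. The lowest diabetic value, in Cfb-/- diabetic mouse 3, was still above the highest control value. On the log2 scale, the change was 1.89 ± 0.26 (adjusted p = 7.63e-05) in WT and 2.52 ± 0.26 (adjusted p = 1.05e-05) in Cfb-/- mice.

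Mmp7, or matrilysin, is made by injured epithelium and was a low transcript here. Values were 0.0458, 0.0461 and 0 FPKM in WT control mice, 0.047, 0 and 0.178 in Cfb-/- control mice, 0.276, 0.607, 0.513 and 0.707 in WT diabetic mice and 0.987, 0.465, 0.164 and 0.524 in Cfb-/- diabetic mice. Groups overlapped only where Cfb-/- diabetic mouse 3 fell below Cfb-/- control mouse 3. Mmp7 passed the test in both genotypes, at a log2 fold change of 2.23 ± 0.44 (adjusted p = 0.00112) in WT and 1.82 ± 0.44 (adjusted p = 0.00525) in Cfb-/- mice, on a scale in which the added 0.1 FPKM is as large as the control values. In WT mice the call was lost with the urothelium marker score, the mean log2 level of 6 genes of the pelvic lining, as covariate (1.31, adjusted p = 0.114 by limma). It was also lost without the 5 mice in which this score was high (1.55, adjusted p = 0.134 by limma), a fit that leaves 1 WT diabetic mouse, the one of lowest Mmp7, whose spread is taken from the other groups. Mmp9, gelatinase B, ranged from 0.143 to 0.219 FPKM in control and from 0.19 to 0.379 FPKM in diabetic mice and passed in neither genotype, with log2 fold changes of 0.34 ± 0.20 (adjusted p = 0.174) and 0.46 ± 0.20 (adjusted p = 0.0943).

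The 3 inhibitors parted. Timp1, a secreted inhibitor known to rise in scarring tissue, measured 0.507, 0.709 and 0.601 FPKM in WT control and 0.446, 0.711 and 0.559 in Cfb-/- control mice. It reached 6.71, 3.61, 3.9 and 6.07 FPKM in WT diabetic and 9.24, 8.45, 3.92 and 6.61 in Cfb-/- diabetic mice, with no overlap. Against controls, the log2 fold change of Timp1 was 2.83 ± 0.29 (adjusted p = 9.27e-06) in WT and 3.36 ± 0.29 (adjusted p = 3.53e-06) in Cfb-/- mice, second to Mmp2 among the 39 genes in Cfb-/- mice. Timp2, which also helps MMP14 to activate MMP2, ranged from 8.98 to 15.7 FPKM in control and from 26.4 to 47.6 FPKM in diabetic mice, at 1.48 ± 0.22 (adjusted p = 0.00016) and 1.59 ± 0.22 (adjusted p = 0.000107).

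Timp3 was the most abundant inhibitor and, with the deposited values not rescaled, the only one of the 39 genes called lower. Control mice had 510, 313 and 505 FPKM (WT) and 522, 520 and 498 FPKM (Cfb-/-). Diabetic mice had 292, 283, 248 and 249 FPKM (WT) and 227, 262, 307 and 266 FPKM (Cfb-/-). WT control mouse 2, at 313 FPKM, lay far below the other 5 control mice and just above Cfb-/- diabetic mouse 3, at 307 FPKM. The log2 fold change of Timp3 was -0.69 ± 0.16 (adjusted p = 0.00318) in WT and -0.96 ± 0.16 (adjusted p = 0.000385) in Cfb-/- mice, which corresponds to folds of 0.619 and 0.515, and the direction was the same under all 25 alternatives in each genotype. Without WT control mouse 2 the WT value was -0.93 (adjusted p = 0.0002 by limma). The call in WT mice was lost under quantile normalization (adjusted p = 0.137 by limma) and with the urothelium or the adipocyte marker score as covariate (0.114 and 0.0983). It was also lost without the 5 mice of high urothelium score (log2 fold change -0.57, adjusted p = 0.216 by limma), where WT diabetic mouse 1 is alone in its group and is assumed to vary like the other groups. The call in Cfb-/- mice held under every alternative that left more than 1 mouse in each group. Without the 5 mice, where Cfb-/- control mouse 2 is alone in its group, the log2 fold change was -0.98.

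**Figure D2:**
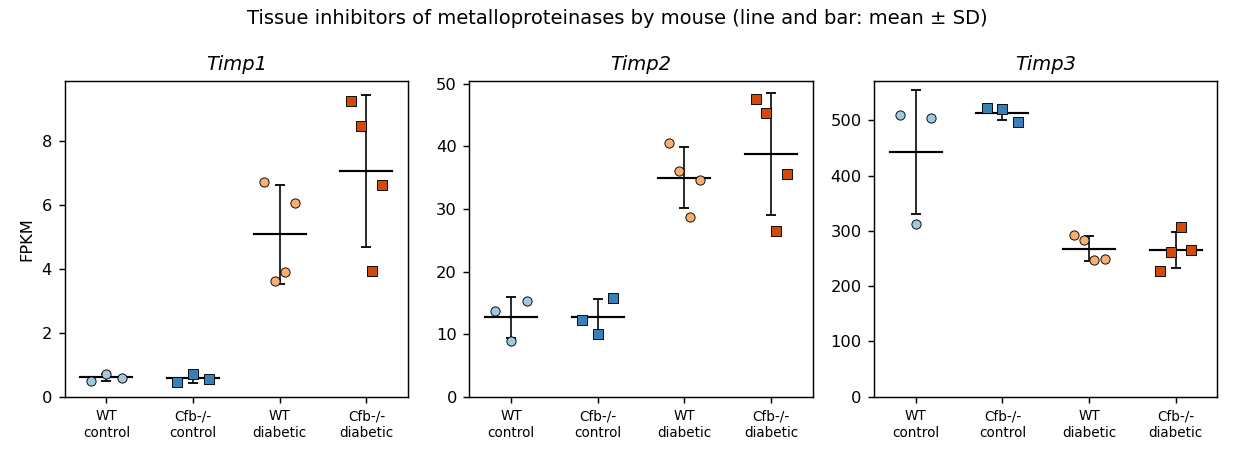
FPKM (vertical axes, from 0) of Timp1, Timp2 and Timp3 in each mouse of the 4 groups, with the group mean (line) and SD (bar). For Timp1 and Timp2 all 8 diabetic mice lie above all 6 control mice, whereas for Timp3 the diabetic mice, at 227 to 307 FPKM, lie below the control mice, at 313 to 522 FPKM.

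FPKM is per length of transcript, so levels of genes can be added. The 4 metalloproteinases summed to 2.62 to 4.59 FPKM in control and 15.6 to 35.5 FPKM in diabetic mice, without overlap. Summed TIMP level was 323 to 535 FPKM in control and 280 to 339 FPKM in diabetic mice, and the ranges overlapped because of WT control mouse 2. Metalloproteinase level as a percentage of TIMP level was 0.493% to 1.13% in control mice and 4.62% to 12.5% in diabetic mice. Timp3 made up 96.8% to 98% of the summed TIMP level in control mice and 80% to 91% in diabetic mice. These are sums of the same values and add no test to those above.

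Among the glycoproteins, 14 of 15 were higher in WT and 13 of 15 in Cfb-/- diabetic mice. Fn1, which encodes fibronectin, the scaffold on which other matrix is laid down, lies at chr1:71585473-71653280. It measured 1.8, 1.05 and 1.57 FPKM in WT control and 1.74, 1.59 and 2.46 in Cfb-/- control mice. WT diabetic mice had 17.1, 11, 9.81 and 10.5 FPKM, and Cfb-/- diabetic mice had 15.6, 15.3, 10.9 and 12.4. Groups did not overlap, and WT diabetic mouse 1 was the highest of all 14. Mean Fn1 was 1.47 ± 0.383 FPKM (SD, n = 3) in WT control, 1.93 ± 0.466 in Cfb-/- control, 12.1 ± 3.34 (n = 4) in WT diabetic and 13.5 ± 2.31 in Cfb-/- diabetic mice. Diabetic over control, the log2 fold change was 2.95 ± 0.22 (adjusted p = 1.3e-06) in WT and 2.76 ± 0.22 (adjusted p = 2.74e-06) in Cfb-/- mice.

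Tnc encodes tenascin C, an adhesion-modulating protein of wounds. The WT control mice had 0.406, 0.382 and 0.486 FPKM, whereas the Cfb-/- control mice had 1.33, 0.443 and 1.64. Diabetic mice measured 3.31, 4.58, 3.9 and 2.92 FPKM (WT) and 4.21, 3.64, 2.29 and 3.63 FPKM (Cfb-/-), all above every control mouse. On the log2 scale, the change was 2.83 ± 0.33 (adjusted p = 2.29e-05) in WT and 1.65 ± 0.33 (adjusted p = 0.00141) in Cfb-/- mice.

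Postn encodes periostin, a matricellular protein of fibroblasts in remodelling tissue, at chr3:54359267-54391041. It measured 0.194, 0.146 and 0.0629 FPKM in WT control and 0.483, 0.238 and 0.676 in Cfb-/- control mice. Values were 1.11, 1.83, 3.2 and 1.9 FPKM in WT diabetic and 1.14, 0.943, 0.449 and 1.18 in Cfb-/- diabetic mice. The WT groups did not overlap, whereas Cfb-/- diabetic mouse 3 lay below Cfb-/- control mice 1 and 3. Against controls, the log2 fold change was 3.12 ± 0.38 (adjusted p = 3.48e-05) in WT and 0.87 ± 0.38 (adjusted p = 0.0937) in Cfb-/- mice, and only the first passed the test. The change in Cfb-/- mice passed it with the urothelium score as covariate (1.13, adjusted p = 0.0119 by limma) and without Cfb-/- diabetic mouse 3 (1.15, adjusted p = 0.026 by limma). Its interaction of genotype with diabetes is given with the genotype comparisons.

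Thrombospondins are matricellular proteins that bind growth factors, and thrombospondin 1 can release TGF-beta from its latent form. Thbs1 measured 6.73, 3.82 and 4.51 FPKM in WT control, 9.86, 7.05 and 13.2 in Cfb-/- control, 23.5, 20.7, 15.8 and 19.4 in WT diabetic and 35.7, 25.7, 20.8 and 23.3 in Cfb-/- diabetic mice. Every diabetic mouse was above every control mouse, and the control groups themselves did not overlap, with the Cfb-/- mice higher. The log2 fold change of Thbs1 was 1.99 ± 0.24 (adjusted p = 2.89e-05) in WT and 1.40 ± 0.24 (adjusted p = 0.000425) in Cfb-/- mice. Thbs2 was lower and more alike across genotypes, at 0.973, 0.686 and 1.02 FPKM in WT control, 0.979, 1.06 and 0.993 in Cfb-/- control, 5.81, 3.02, 3.6 and 4.03 in WT diabetic and 5.57, 5.64, 3.39 and 4.33 in Cfb-/- diabetic mice. Its log2 fold change was 2.06 ± 0.22 (adjusted p = 1.56e-05) in WT and 2.09 ± 0.22 (adjusted p = 1.56e-05) in Cfb-/- mice.

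Sparc, an abundant collagen-binding glycoprotein, measured 30, 29.7 and 35.3 FPKM in WT control and 25, 27.8 and 31.7 in Cfb-/- control mice. Diabetic mice had 116, 97.1, 88.3 and 124 FPKM (WT) and 130, 129, 86.2 and 94.5 FPKM (Cfb-/-), all far above every control mouse. Diabetic over control, the log2 fold change was 1.73 ± 0.16 (adjusted p = 4.99e-06) in WT and 1.94 ± 0.16 (adjusted p = 2.91e-06) in Cfb-/- mice.

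Mgp, matrix Gla protein, an inhibitor of calcification, was the most abundant of the 39 genes with a mean of 408 FPKM over 14 mice and ranked 115 of 21878 genes. It measured 175, 198 and 267 FPKM in WT control and 116, 211 and 177 in Cfb-/- control mice. In diabetic mice it reached 609, 417, 486 and 604 FPKM (WT) and 712, 830, 375 and 531 FPKM (Cfb-/-). Cfb-/- diabetic mouse 3 was the lowest of the diabetic mice and still above all controls. On the log2 scale, the change was 1.32 ± 0.26 (adjusted p = 0.00131) in WT and 1.85 ± 0.26 (adjusted p = 0.000126) in Cfb-/- mice.

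Fibrillin 1 and fibulin 1 belong to the elastic and microfibrillar matrix. Fbn1 measured 0.687, 0.451 and 0.928 FPKM in WT control, 0.595, 0.593 and 0.758 in Cfb-/- control, 4.27, 2.9, 2.23 and 2.76 in WT diabetic and 3.8, 3.49, 2.99 and 3.33 in Cfb-/- diabetic mice, with log2 fold changes of 2 ± 0.23 (adjusted p = 2.14e-05) in WT and 2.23 ± 0.23 (adjusted p = 1.05e-05) in Cfb-/- mice. Fbln1 measured 0.94, 1.43 and 0.91 FPKM in WT control, 1.33, 1.35 and 2.55 in Cfb-/- control, 4.11, 4.68, 4.72 and 3.68 in WT diabetic and 3.8, 7.22, 2.95 and 3.89 in Cfb-/- diabetic mice, with log2 fold changes of 1.90 ± 0.28 (adjusted p = 0.000142) and 1.29 ± 0.28 (adjusted p = 0.00281). No diabetic mouse overlapped the controls in either gene. Eln, the elastin gene, and Fbln2 had lower point estimates, at 1.09 ± 0.23 (adjusted p = 0.00163) and 0.95 ± 0.23 (adjusted p = 0.005) in WT and 0.88 ± 0.23 (adjusted p = 0.008) and 1.01 ± 0.23 (adjusted p = 0.00409) in Cfb-/- mice. The difference from Fbn1 and Fbln1 was not tested. Both Eln and Fbln2 lost their calls under some alternatives, among them the adipocyte score as covariate in WT and quantile normalization in Cfb-/- mice. Tgfbi, a TGF-beta-induced adhesion protein, was 3.31 to 7.59 FPKM in control and 10 to 19.2 FPKM in diabetic mice. Vtn, vitronectin, which the liver secretes, was between 0 and 0.339 FPKM in all mice and passed in neither genotype.

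**Figure D3:**
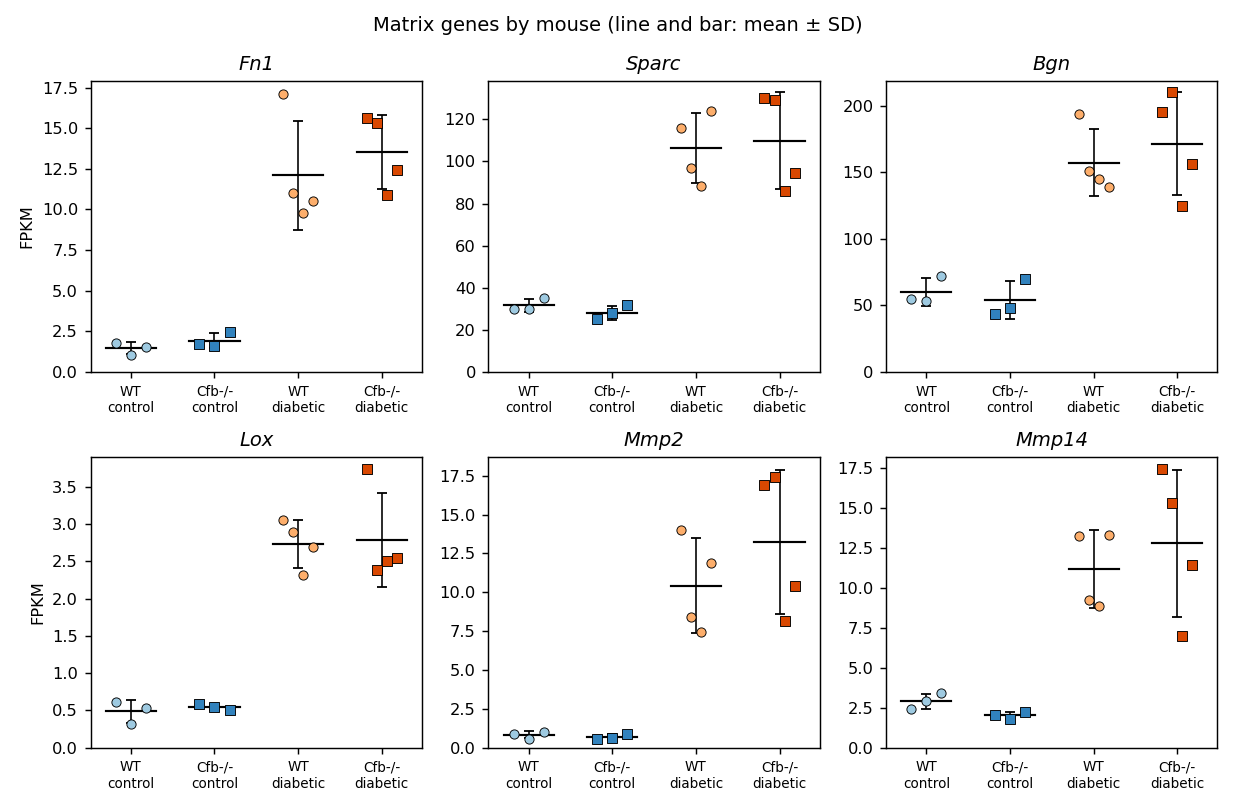
FPKM (vertical axes, from 0) of Fn1, Sparc, Bgn, Lox, Mmp2 and Mmp14 in each mouse of the 4 groups, with the group mean (line) and SD (bar). In all 6 genes every diabetic mouse lies above every control mouse, and the values of WT diabetic and Cfb-/- diabetic mice overlap.

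All 6 proteoglycans were higher in WT diabetic mice and 5 of 6 in Cfb-/- diabetic mice. Biglycan, a small leucine-rich proteoglycan that also signals to innate immune receptors when it is released, was the highest. Bgn measured 54.9, 53.2 and 72.3 FPKM in WT control and 43.4, 48.3 and 70 in Cfb-/- control mice. Diabetic mice had 194, 151, 145 and 139 FPKM (WT) and 195, 210, 125 and 156 FPKM (Cfb-/-), again without overlap. Against controls, the log2 fold change was 1.39 ± 0.20 (adjusted p = 0.000113) in WT and 1.67 ± 0.20 (adjusted p = 3.21e-05) in Cfb-/- mice.

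Lumican, which regulates fibril diameter, showed wider spread. Lum measured 0.802, 0.554 and 0.641 FPKM in WT control, 0.639, 0.722 and 1.79 in Cfb-/- control, 3.11, 4.06, 5.58 and 4.44 in WT diabetic and 2.49, 3.42, 1.64 and 3.24 in Cfb-/- diabetic mice. Cfb-/- control mouse 3 lay above Cfb-/- diabetic mouse 3, the only overlap of diabetic with control mice in this gene. The log2 fold change was 2.51 ± 0.32 (adjusted p = 4.76e-05) in WT and 1.37 ± 0.32 (adjusted p = 0.00437) in Cfb-/- mice, and the latter call was lost under quantile normalization (0.82, adjusted p = 0.0578 by limma). Decorin (Dcn) was 9.1 to 15.6 FPKM in control and 17.6 to 44.7 FPKM in diabetic mice, fibromodulin (Fmod) 1.48 to 4.01 and 3.95 to 6.7 FPKM, and perlecan (Hspg2) 2.83 to 5.14 and 7.4 to 10.4 FPKM. Versican (Vcan), a large hyaluronan-binding proteoglycan, measured 0.0256, 0.00482 and 0.0315 FPKM in WT control, 0.122, 0.0409 and 0.112 in Cfb-/- control, 0.103, 0.648, 0.326 and 0.106 in WT diabetic and 0.102, 0.0953, 0.086 and 0.119 in Cfb-/- diabetic mice. Most Vcan values lay near or under the 0.1 FPKM added before the logarithm, and WT diabetic mice 2 and 3 stood out above the rest. Diabetic over control, the log2 fold change of Vcan was 1.50 ± 0.38 (adjusted p = 0.00553) in WT and 0.09 ± 0.38 (adjusted p = 0.872) in Cfb-/- mice. In WT mice it ranged from 0.32 to 3.05 over the alternatives, and the call was lost under 4 of 24, namely quantile normalization, either marker score as covariate, and leaving out the 5 mice of high urothelium score, which leaves 1 WT diabetic mouse.

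Basement membrane genes, here the 8 laminin chains with Nid1, Nid2 and Hspg2, were higher in 10 of 11 cases in WT and 9 of 11 in Cfb-/- diabetic mice, with median log2 fold changes of 1.13 and 0.96. In WT mice the call of Lama2 (0.82 ± 0.26) was lost under 7 of 25 alternatives, that of Lama5 under 2, and those of Lama4 and Lamb2 under 1 each. In Cfb-/- mice each of these genes lost its call under 1. Lamb1, Lamc1, Nid1, Nid2 and Hspg2 kept theirs under all in both genotypes. Lamb1 was the most abundant laminin chain, a beta chain found in many basement membranes. It measured 18.3, 18.2 and 13.4 FPKM in WT control, 20.8, 14.5 and 21.4 in Cfb-/- control, 34.7, 37, 27.5 and 29.4 in WT diabetic and 40.5, 35.1, 35.3 and 33.3 in Cfb-/- diabetic mice. No diabetic mouse overlapped the controls, and the log2 fold change was 0.95 ± 0.16 (adjusted p = 0.000301) in WT and 0.95 ± 0.16 (adjusted p = 0.000358) in Cfb-/- mice. Nid1, nidogen 1, which ties laminin to collagen IV, measured 6.36, 3.19 and 7.41 FPKM in WT control, 4.07, 4.81 and 6.48 in Cfb-/- control, 21.2, 16.7, 15 and 14.2 in WT diabetic and 17, 19.8, 16.1 and 15.9 in Cfb-/- diabetic mice. Its log2 fold change of 1.62 ± 0.24 (adjusted p = 0.000148) in WT and 1.75 ± 0.24 (adjusted p = 9.51e-05) in Cfb-/- mice exceeded that of Nid2, at 0.69 ± 0.11 (adjusted p = 0.000308) and 0.63 ± 0.11 (adjusted p = 0.000672); the difference between the genes was not tested.

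Lama5 and Lamb2, chains of the laminin of the mature glomerular basement membrane, were 2.92 to 7.21 and 7.15 to 9.76 FPKM in control and 9.13 to 19.4 and 11.3 to 17.6 FPKM in diabetic mice. Of 6 markers of podocytes, which make this laminin together with endothelial cells, 3 were called higher in WT and 6 in Cfb-/- mice (median log2 fold change 0.61 and 1.09). Of all genes, 36.2% were called higher in WT and 27.4% in Cfb-/- mice. The part of podocytes in the result was not tested. Lama1, the alpha chain of the embryonic tubule that persists in some tubular basement membranes, was the only laminin not higher by the point estimate in either genotype. It was 1.29 to 2.65 FPKM in control and 1.14 to 1.82 FPKM in diabetic mice, with log2 fold changes of -0.45 ± 0.22 (adjusted p = 0.11) and -0.26 ± 0.22 (adjusted p = 0.386). Lama1 stayed uncalled under 22 of 25 alternatives in WT and 24 of 25 in Cfb-/- mice, and was called under the rest. Lamb3, a chain of the laminin of stratified and urinary epithelia, measured 0.19, 0.272 and 0.182 FPKM in WT control, 0.769, 0.13 and 0.643 in Cfb-/- control, 0.689, 1.99, 1.15 and 0.863 in WT diabetic and 1.13, 0.849, 0.573 and 0.902 in Cfb-/- diabetic mice. Cfb-/- control mice 1 and 3 reached the diabetic range and Cfb-/- control mouse 2 did not. On the log2 scale, the change of Lamb3 was 1.93 ± 0.42 (adjusted p = 0.00212) in WT and 0.83 ± 0.42 (adjusted p = 0.14) in Cfb-/- mice. The WT call was lost with the urothelium or the adipocyte marker score as covariate, and the value ranged from 0.67 to 2.30 over 25 alternatives.

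All 3 lysyl oxidases were higher in both genotypes. Lox, which oxidizes lysines of collagen and elastin so that the fibres crosslink, measured 0.619, 0.321 and 0.53 FPKM in WT control, 0.586, 0.551 and 0.5 in Cfb-/- control, 3.05, 2.89, 2.31 and 2.69 in WT diabetic and 3.73, 2.38, 2.5 and 2.54 in Cfb-/- diabetic mice. Against controls, the log2 fold change was 2.29 ± 0.20 (adjusted p = 3.68e-06) in WT and 2.14 ± 0.20 (adjusted p = 6.47e-06) in Cfb-/- mice. Loxl2 measured 1.16, 0.698 and 1.41 FPKM in WT control, 0.918, 1.21 and 0.974 in Cfb-/- control, 4.23, 3.15, 3.12 and 3.95 in WT diabetic and 4.47, 4.18, 2.87 and 3.36 in Cfb-/- diabetic mice, with log2 fold changes of 1.68 ± 0.22 (adjusted p = 5.83e-05) and 1.74 ± 0.22 (adjusted p = 4.97e-05). Both genes separated all diabetic from all control mice.

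Loxl1, the elastin-linked enzyme and the most abundant of the 3, measured 4.35, 4.76 and 7.41 FPKM in WT control and 2.75, 3.92 and 3.68 in Cfb-/- control mice. Diabetic mice had 14.4, 8.2, 7.71 and 8.48 FPKM (WT) and 12.8, 16.6, 8.11 and 9.84 FPKM (Cfb-/-). WT control mouse 3, at 7.41 FPKM, came close to WT diabetic mouse 3, at 7.71 FPKM, and no diabetic mouse fell below a control mouse. The log2 fold change of Loxl1 was 0.80 ± 0.27 (adjusted p = 0.0249) in WT and 1.71 ± 0.27 (adjusted p = 0.000231) in Cfb-/- mice. The call in WT mice did not hold under 6 of 25 alternatives, among them median-ratio scaling (0.52, adjusted p = 0.112) and leaving out WT diabetic mouse 1 (0.59, 0.0748), WT control mouse 1 (0.65, 0.0853) or WT control mouse 2 (0.71, 0.095), all by limma.

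Most related genes outside the list moved likewise. Of 95 further genes for matrix proteins, enzymes, inhibitors and matrix receptors, 91 were measured above the filter. In WT diabetic mice 65 of the 91 were higher and 0 lower, against 36.2% and 9.97% of all genes. In Cfb-/- diabetic mice 62 were higher, and 1, the protease gene Adamts15, was lower at a log2 fold change of -1.04 ± 0.21 (adjusted p = 0.00165 by limma). Of all genes, 27.4% were higher and 6.40% lower there. The median log2 fold changes of the 91 genes were 1 and 0.93. Of 4 other laminin and netrin genes only 1 was higher in each genotype. Their medians of 0.28 and 0.25 lay near those of all genes, 0.29 and 0.22. Spp1, which encodes osteopontin, changed by 2.78 ± 0.19 in WT and 2.48 ± 0.19 in Cfb-/- mice, and Ltbp2, a latent TGF-beta binding protein, by 2.89 ± 0.37 and 3.34 ± 0.37. The hyaluronan receptor gene Cd44 led the 18 matrix receptors at 2.18 ± 0.26 and 2.41 ± 0.26; of these receptors 16 were higher in WT and 14 in Cfb-/- mice.

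Marker genes of other cell types moved with diabetes too. A marker score was the mean log2(FPKM + 0.1) of a cell type's genes. The score of 10 fibroblast and pericyte genes was 1.79 to 2.20 in control and 2.69 to 3.23 in diabetic mice, and the sum of these genes was 59.4 to 81.3 and 116 to 174 FPKM. The 8 macrophage genes scored 2.10 to 2.74 in control and 4.09 to 4.86 in diabetic mice, and 5 genes of injured tubule scored -1.07 to -0.21 and 2.70 to 3.82. The 6 proximal tubule genes scored 7.10 to 7.44 in control and 5.18 to 6.68 in diabetic mice. Podocyte genes (6) scored 2.14 to 3.12 in control and 2.99 to 3.92 in diabetic mice, and 6 endothelial genes scored 2.62 to 3.41 and 3.54 to 3.83. Of the 6 endothelial genes 3 were called higher in each genotype, against 36.2% of all genes in WT and 27.4% in Cfb-/- mice. None of these lists had a gene at 0 in all mice of a group. Their part in the matrix gene differences was not tested.

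The second question was whether loss of Cfb altered these transcripts in diabetic mice. Compared with WT diabetic mice, Cfb-/- diabetic mice had 0 of the 39 genes changed at an adjusted p under 0.05 in limma, where 0.00671% of all genes were, that is 1 gene, Cfb itself. At an unadjusted p under 0.05 there were 3 of 39, Lum, Postn and Vcan, all lower, against 3% of all genes. The criteria of the study, put on the limma fit rather than on DESeq2 results, took 1, Postn, against 0.476% of all genes. The median log2 fold change over the 39 genes was 0.05, and that of all genes 0.04.

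The 95% intervals show how large a genotype difference in diabetic mice these data allow. For Fn1 the log2 fold change, Cfb-/- over WT, in diabetic mice was 0.18 with a 95% interval of -0.26 to 0.62, and an exact permutation test of the 4 against 4 mice gave p = 0.4, where 0.0286 is the smallest possible. Sparc differed by 0.04 (-0.28 to 0.35), Lox by 0.01 (-0.39 to 0.41) and Timp3 by -0.02 (-0.33 to 0.30), so that a 1.5-fold difference in either direction lay outside the intervals of Sparc, Lox and Timp3. Those of Mmp2, 0.31 (-0.26 to 0.89), and of Timp1, 0.45 (-0.12 to 1.01), were wider.

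For Postn the log2 fold change in diabetic mice was -1.02 ± 0.35 (p = 0.0117, adjusted p = 1 by limma), and the exact permutation test gave p = 0.0857. WT diabetic mice 2, 3 and 4, at 1.83, 3.2 and 1.9 FPKM, lay above all 4 Cfb-/- diabetic mice, whereas WT diabetic mouse 1, at 1.11 FPKM, lay among them. Without WT diabetic mouse 3 or without Cfb-/- diabetic mouse 3 the Postn difference no longer met the study criteria. Lum differed by -0.68 ± 0.30 (adjusted p = 1) and Vcan by -0.76 ± 0.35 (adjusted p = 1), both by limma.

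The third question was the effect of Cfb loss without diabetes. Compared with WT control mice, Cfb-/- control mice had 0 of 39 genes changed at an adjusted p under 0.05 in limma (0.00671% of all genes, again Cfb alone). At an unadjusted p under 0.05 there were 4 of 39, Thbs1, Postn and Tnc higher and Loxl1 lower, against 17.5% of all genes, a share above that of the list. Postn, at 1.23 ± 0.41 (adjusted p = 0.247 by limma), and Tnc, at 1.08 ± 0.35 (adjusted p = 0.247), met the criteria of the study, which 1.17% of all genes did. Thbs1 differed by 0.98 ± 0.25 (adjusted p = 0.236 by limma) and Loxl1 by -0.63 ± 0.28 (adjusted p = 0.276). Exact permutation tests of 3 against 3 mice cannot go below p = 0.1. Without Cfb-/- control mouse 2 the adjusted test called Tnc (1.59 ± 0.25, adjusted p = 0.0405 by limma), and without WT control mouse 1 it called Thbs1 (1.21 ± 0.26, adjusted p = 0.0261 by limma).

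**Figure D4:**
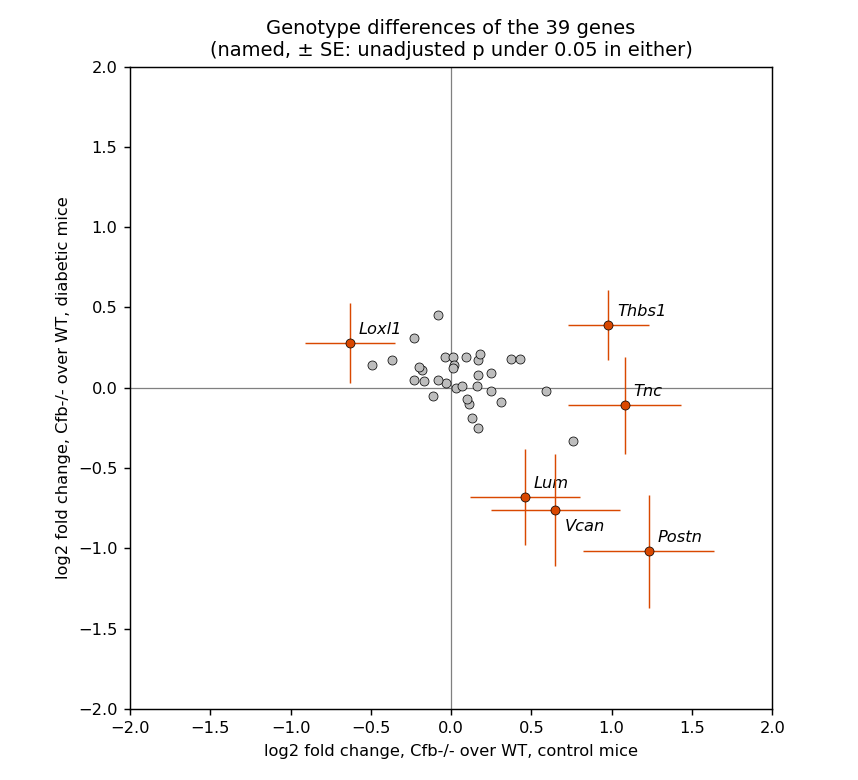
Log2 fold change of Cfb-/- over WT in control mice (horizontal axis) and in diabetic mice (vertical axis), 1 point for each of the 39 genes; genes with an unadjusted p under 0.05 in either comparison are named and drawn with their SE. Postn lies at 1.23 and -1.02, the named genes Lum, Vcan and Tnc and several unnamed genes share its quadrant, and no gene passed the adjusted test.

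The interaction asks whether the genotype difference in diabetic mice differed from that in control mice. None of the 39 genes passed it after adjustment (0 of 39 in limma), and 5 of 39 had an unadjusted p under 0.05, against 5.77% of all genes. Postn had the largest, at -2.25 ± 0.54 (adjusted p = 0.698 by limma). Vcan (-1.41 ± 0.53), Tnc (-1.19 ± 0.46), Lum (-1.14 ± 0.45) and Loxl1 (0.91 ± 0.38) each had an adjusted p of 0.779. For Lamb3 the interaction was -1.10 ± 0.59 (adjusted p = 0.779 by limma), so that its call in WT and not in Cfb-/- mice was not shown to be a difference between genotypes. Fn1 had -0.19 ± 0.32 and Timp3 -0.26 ± 0.22.

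Markers of urothelium, the lining of the renal pelvis, and of adipocytes differed between mice of the same group. The score of 6 urothelium genes was above 0 in WT diabetic mice 2, 3 and 4 (3.10, 3.37 and 1.78) and in Cfb-/- control mice 1 and 3 (1.24 and 1.18), and between -2.68 and -0.28 in the other 9 mice. In summed level this was 20.7 to 85.5 FPKM against 0.537 to 10.5 FPKM. The score of 6 adipocyte genes was -1.69 to -0.44 in WT diabetic mice and -0.88 in Cfb-/- control mouse 1, and -3.10 to -2.64 in the other 9 mice. In WT control and in Cfb-/- diabetic mice 3 of these 6 genes were at 0 in all mice of the group. Postn was higher in the mice of high urothelium score than in the other mice of their group, in both groups that held such mice. Lum did not follow the score in Cfb-/- control mouse 1 (0.639 FPKM, against 0.722 FPKM in mouse 2), nor Tnc in WT diabetic mouse 4 (2.92 FPKM, against 3.31 FPKM in mouse 1). Among WT diabetic mice the adipocyte score was highest in mouse 3 (-0.44), which also had the highest Postn (3.2 FPKM) and Lum (5.58 FPKM). The score was higher in mouse 1 (-1.35) than in mice 2 and 4 (-1.69 and -1.54), whereas Postn, Lum and Vcan were lowest in mouse 1. For Vcan this was 0.103 FPKM against 0.106 FPKM in mouse 4. The part of either cell type in these genes was not tested.

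With the urothelium score as covariate, the Postn interaction was -0.95, that of Vcan -0.15, that of Tnc -0.24 and that of Lum -0.48, each with an adjusted p of 1 by limma. The score was high only in WT diabetic and Cfb-/- control mice, so score and interaction cannot be told apart. The part of urothelium was not tested. With the urothelium score, the Postn difference between diabetic genotypes was -0.37, and it was -0.59 with the adipocyte score as covariate. Without the 5 mice of high urothelium score it was -0.31, with WT diabetic mouse 1 and Cfb-/- control mouse 2 the only mice left in their groups. In the diabetes comparisons, with the urothelium score as covariate 30 of the 39 genes were called higher in WT mice and 34 in Cfb-/- mice. With the adipocyte score the counts were 28 and 32. The share of all genes called higher under these covariate fits is not given here, so these counts cannot be set against it.

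**Figure D5:**
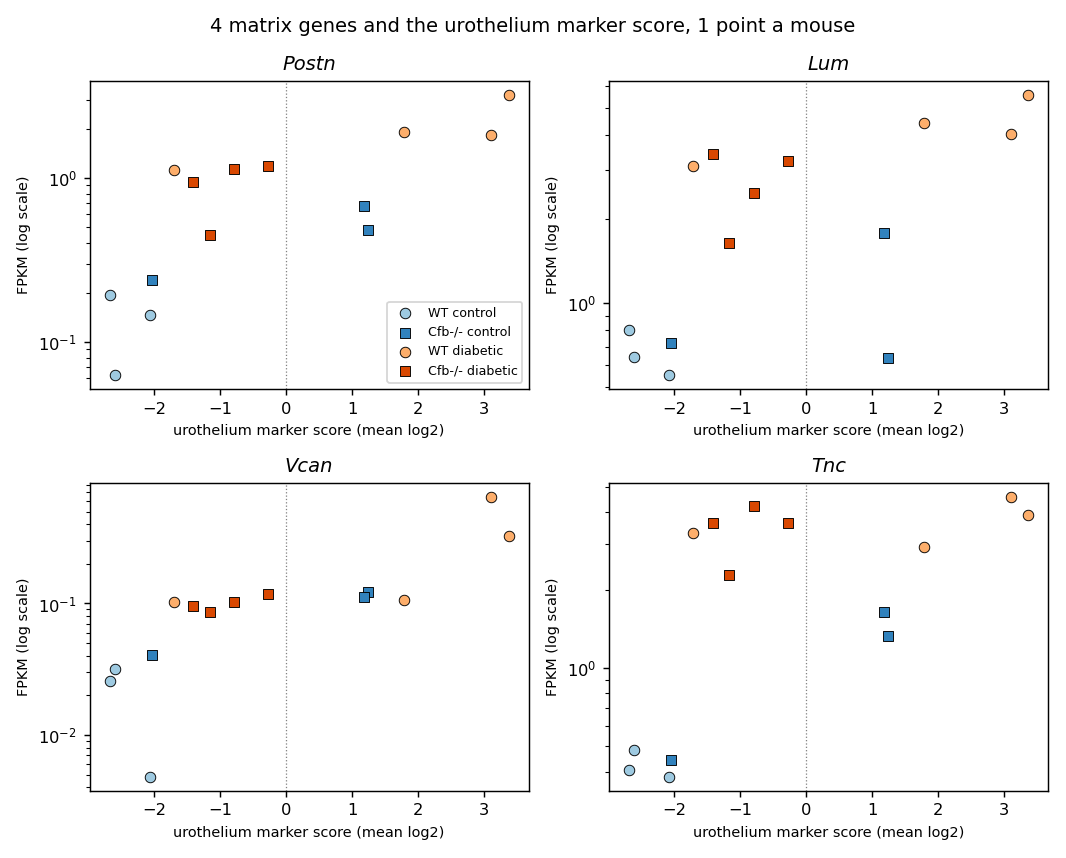
FPKM of Postn, Lum, Vcan and Tnc (vertical axes, log scale) against the urothelium marker score (horizontal axes, mean log2(FPKM + 0.1) of 6 genes), 1 point for each of the 14 mice, coloured by group. WT diabetic mice 2, 3 and 4 and Cfb-/- control mice 1 and 3 lie to the right of 0, and among WT diabetic mice the lowest Postn, Lum and Vcan values belong to mouse 1, which lies to the left, whereas the lowest Tnc value belongs to mouse 4, which lies to the right.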

How the data were processed

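Kidney RNA of 14 mice was sequenced, and the deposited files hold 1 FPKM value per gene and mouse. Per the labels, the authors used Trimmomatic, HISAT2, Cufflinks, HTSeq and DESeq on GRCm38.p6, with versions not given in the sources used here. The unit is not named in the files: FPKM was taken from the tools listed and the values, whose lowest levels above 0 shrink with transcript length (2nd percentile 0.0287 for short and 0.0052 for long genes). Groups came from sample titles, since the treatment label of control mice matches that of diabetic mice.

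Tests used limma 3.58.1 (R 4.3.3, trend on mean level) on log2(FPKM + 0.1) of all 14 mice, with Benjamini-Hochberg adjustment over the 14912 genes with at least 0.1 FPKM in 3 mice. Fold changes are on that scale, which understates the change of low genes. Exact permutation tests were two-sided (scipy 1.17.1). The fit was tested on simulated data. The 39 genes and all lists were chosen with earlier results of these data known. Genes described in full were called in a diabetes comparison with an absolute log2 fold change of at least 1 (the 16 largest of 32), met the study criteria between genotypes, had the highest level of their role, or were Fn1, 21 in all; the values of Vcan and Lamb3 by mouse were added after they were seen. RefSeq promoter sequences (GRCm38.p6) matched 24 of 39 genes.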

Additional observations from a re-analysis of the deposited data

Results flagged for a closer look

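In 42 groups of 4 mice, 3 values lay far from the other mice of their group by Dixon's test, which flags about 1 group in 20 by chance. They were Fn1 in WT diabetic mouse 1 (17.1 FPKM), Lox in Cfb-/- diabetic mouse 1 (3.73 FPKM) and Loxl1 in WT diabetic mouse 1 (14.4 FPKM). Fn1 and Lox kept their diabetes calls without these mice, whereas Loxl1 lost its call in WT mice without WT diabetic mouse 1.

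For 5 genes the genotype difference in diabetic mice differed from that in control mice at an unadjusted p under 0.05, and for none after adjustment in limma. The log2 differences were -2.25 for Postn (adjusted p = 0.698 by limma), -1.41 for Vcan, -1.19 for Tnc, -1.14 for Lum and 0.91 for Loxl1 (adjusted p = 0.779 by limma for each of these 4). The urothelium marker score was above 0 in 3 of 4 WT diabetic and 2 of 3 Cfb-/- control mice and in no other mouse. With this score as covariate the log2 differences of Postn, Vcan, Tnc and Lum were -0.95, -0.15, -0.24 and -0.48. The score and these differences follow the same groups, so they cannot be told apart, and the part of urothelium was not tested.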

How the results depend on the processing

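The 56 results for single genes were mainly those of large change with diabetes, a choice that favours stable calls. Under alternatives 1391 values were computed for them, of which 1368 kept direction and side of the threshold, 13 lost the call, 3 gained one and 7 changed sign. Some of these fits left out a mouse of neither group compared, which leaves the log2 fold change as it was. Sign changes were confined to uncalled genotype differences in diabetic mice: Fn1 became -0.0218 with the urothelium score as covariate and -0.348 without the 5 mice of high urothelium score (chosen after seeing the data, with 1 WT diabetic mouse left, the one of highest Fn1), and Tnc became 0.361 and 0.284 with the urothelium and adipocyte scores, 0.0205 without the 5 mice, and -0.213 to 0.0715 leaving out 1 mouse, with the sign changed without Cfb-/- diabetic mouse 3 or WT diabetic mouse 2; the cause was not tested. Among genes outside the 56 results, Lama2 lost its call in WT mice under 7 of 25 alternatives and Fbln2 under 3, whereas Dcn and Timp2 kept theirs under all. Outside the 56 results, signs also changed for some diabetes changes not called above. Mmp9 ranged from -0.44 to 0.52 in WT and from -0.22 to 0.63 in Cfb-/- mice. In Cfb-/- mice Lama1 ranged from -0.81 to 0.15 and Vcan from -0.49 to 0.51. Counts of genes called in the diabetes comparisons stayed within 1.5 times the reported ones under all alternatives, but the study criteria took 18 genes in Cfb-/- mice with log2(FPKM + 1), against 27. In diabetic mice, the study criteria took 0 genes between genotypes with log2(FPKM + 1), with either marker score and without the 5 mice, and 0 to 2 leaving out 1 mouse. In control mice they took 0 with log2(FPKM + 1), the urothelium score or without the 5 mice, 1 under quantile normalization or the adipocyte score, and 0 to 4 leaving out 1 mouse, where the adjusted test called 0 to 1. Same-numbered mice did not pair (r of deviations -0.388 to 0.243 over 19 pairs, against -0.321 to 0.392 over 54 others). A fit with replicate number as a block called 36 genes in WT and 33 in Cfb-/- mice, as without it. FPKM gives no depth, so counting error of low genes such as Vcan, Vtn and Mmp7 is unknown.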
